A study of Homo sapiens with 6 samples.

Results

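Genes of the aryl hydrocarbon receptor response and of the linked xenobiotic response were described in RNA sequencing libraries of drug-resistant breast cancer cells. The group held 8 genes chosen by symbol: AHR, ARNT, AHRR, CYP1A1, CYP1B1, TIPARP, NR1I2 and POR. Each had 1 row among the 58302 genes of the expression table. The rule of choice used symbols and no measured value, but it was set with earlier results of these data known. The libraries came from MDA-MB-231-DR, a doxorubicin-resistant derivative of MDA-MB-231, which is an established human triple-negative breast cancer line. The control group held 3 libraries of these cells without CYT and the CYT group held 3 libraries of these cells treated with CYT. CYT is cyperotundone, a compound of sedge (Cyperus rotundus), and the study asked which genes it changes in drug-resistant cells. Both groups derive from the same resistant line, which was maintained in medium with a low concentration of doxorubicin. The CYT dose and the length of treatment for these libraries were not given in the sources used here, nor whether doxorubicin was present during treatment or the controls received a vehicle. The study's statistics section speaks of 3 independent experiments for its data in general, but neither the labels nor the sequencing methods state that the 3 libraries of a group came from separate cultures, so the p-values measure the spread between these libraries, which may be technical.

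The aryl hydrocarbon receptor, AHR, is a transcription factor that waits in the cytoplasm in a complex with HSP90 chaperones until it binds a ligand such as a dioxin, a polycyclic aromatic hydrocarbon or a tryptophan metabolite. The receptor then enters the nucleus, pairs with ARNT and binds DNA at xenobiotic response elements, whose core reads GCGTG. Its classic targets are the cytochrome P450 genes CYP1A1 and CYP1B1, whose enzymes oxidize the ligands, and the feedback inhibitors AHRR and TIPARP. NR1I2 encodes PXR, a nuclear receptor that senses drugs in liver and gut, and POR encodes the reductase that hands electrons from NADPH to microsomal P450 enzymes.

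The DNA core that the receptor and ARNT recognize was looked up first. RefSeq promoter windows (GRCh38.p14) were at hand for 6 of the 8 members, AHR, ARNT, AHRR, CYP1A1, TIPARP and NR1I2, in 10 windows of 250 bases before a start. For CYP1B1 and POR no window was at hand, so they were not searched. GCGTG, searched on both strands, was found in 4 windows of 3 members, AHRR, CYP1A1 and TIPARP, and in none of the windows of AHR, ARNT and NR1I2. The same core was in 32.2% of all 34943 promoter windows of this length. Each site is given on the strand on which the core, in capitals, reads GCGTG:
CYP1A1 (chr15:74725568-74725597, minus strand): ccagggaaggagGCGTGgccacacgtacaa
AHRR window 1 (chr5:321672-321701, plus strand): ggcgggcggctcGCGTGccggggtggggca
AHRR window 2, outer site (chr5:322360-322380, plus strand): ggcGCGTGacaggcaggggcc
AHRR window 2, inner site (chr5:322556-322585, plus strand): gcagaagggtggGCGTGtgcgcgcgttctc
TIPARP window 1, outer site (chr3:156674369-156674398, minus strand): tcccgcgaggggGCGTGtcctttctcgcgt
TIPARP window 1, inner site (chr3:156674435-156674464, minus strand): ccccctgcgcgcGCGTGcgcgttcgttcga

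The CYP1A1 core began 57 bases before the RefSeq start, on the strand of the gene. The AHRR cores began 30, 247 and 42 bases before their starts, and the TIPARP cores lay 208 and 142 bases before the start on the strand opposite to the gene. The longer motif TNGCGTG, which contains the core, was matched in AHRR window 1 alone among the members' windows and in 4.5% of all windows. The CYP1A1 and TIPARP sites lie inside exons of other transcripts in GENCODE release 29, since that annotation also holds starts further upstream, and the inner site of AHRR window 2 has 16 of its 30 bases in such an exon. A match is a match of letters and was not tested for binding.

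CYP1A1 and CYP1B1 rose after CYT and ARNT fell. AHR, AHRR, TIPARP and POR did not pass the test, and NR1I2 had too few counts to be tested. Under other settings AHR, POR and AHRR each passed at least 1 test, AHR with the replicate number as a block among them, and TIPARP passed none. Of the 8 members, 7 had enough counts to be tested with edgeR's quasi-likelihood test over 15572 genes, and a gene was called at a Benjamini-Hochberg adjusted p under 0.05. Among these 7, 2 were called higher and 1 lower, against 15.7% of all tested genes called higher and 12.9% called lower. All 3 called members also had an absolute log2 fold change over 1, the criterion of the study. The groups did not overlap in 2 members with higher and 1 with lower levels, while 23.4% of all tested genes did not overlap in the higher direction and 22.7% in the lower. Over all tested genes 2449 were called higher and 2002 lower, and a correction for GC content and length made this 3288 higher and 4030 lower. The counts over 7 members are small beside this background. Levels are given as CPM, counts scaled to a common library total, with TMM normalization as mean ± SD over 3 libraries, and the median log2 fold change over all tested genes was 0.0064.

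**Figure D1:**
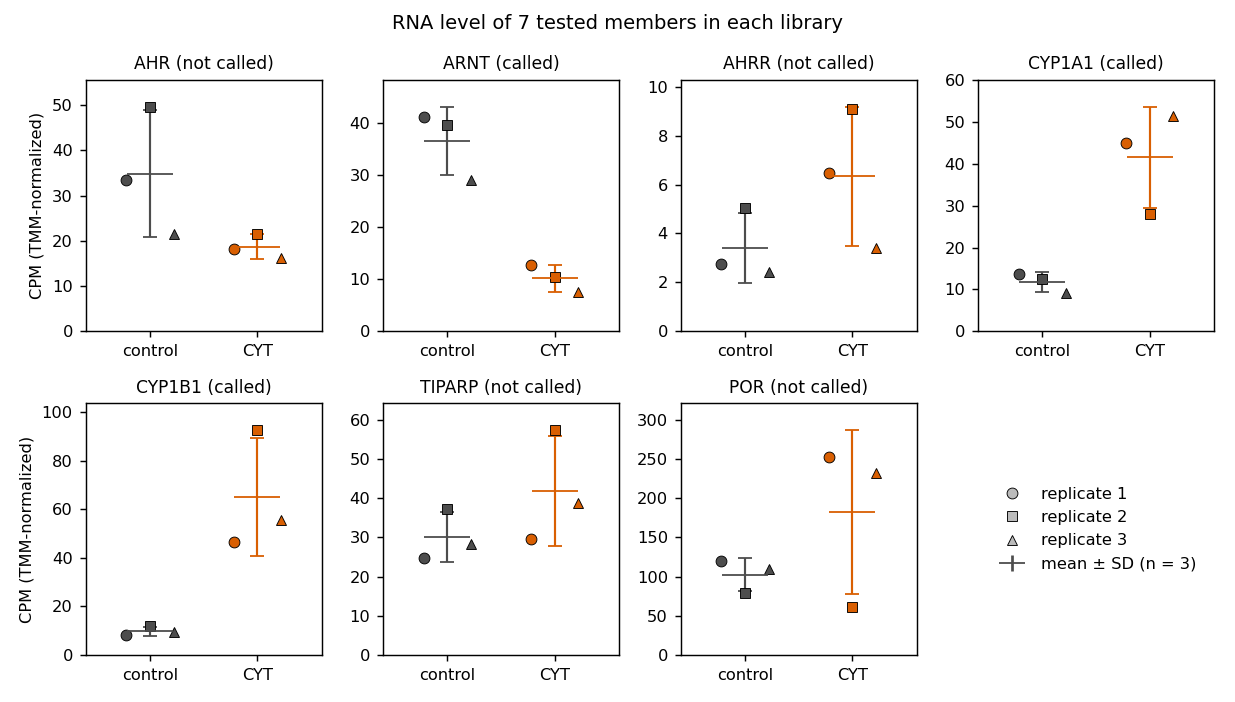
Level in CPM (vertical axes, each from 0) of the 7 tested members in each library, with control libraries in grey, CYT libraries in orange, a symbol for each replicate number, and the mean and SD as bars. CYP1A1, CYP1B1 and ARNT separate the groups, whereas in POR the replicate 2 library of the CYT group sits at 61.5 CPM, below every control library.

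ARNT (ENSG00000143437, chr1:150809705-150876768, minus strand), the partner without which the receptor does not bind its response element, fell after CYT. Its level was 41, 39.5 and 29 CPM in control libraries 1 to 3 and 12.6, 10.4 and 7.47 CPM in CYT libraries 1 to 3. Every CYT library was thus below every control library. The mean went from 36.5 ± 6.5 to 10.2 ± 2.59 CPM (SD, n = 3 each), a log2 fold change of -1.84 (SE 0.33, edgeR adjusted p = 0.00369). ARNT also pairs with the hypoxia-inducible factors, whose genes are given with its family.

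AHR itself (ENSG00000106546, chr7:17298622-17346152, plus strand), the ligand-binding receptor, was lower on average, but this difference did not pass the test. The control libraries held 33.5, 49.7 and 21.5 CPM and the CYT libraries 18.3, 21.6 and 16.1 CPM. The groups overlapped by the smallest margin, since CYT replicate 2 at 21.6 CPM was just above control replicate 3 at 21.5 CPM. The means were 34.9 ± 14.1 and 18.7 ± 2.81 CPM (SD, n = 3 each), with a log2 fold change of -0.90 (SE 0.36, edgeR adjusted p = 0.0889). With the replicate number as a block the log2 fold change was -0.84 (SE 0.26) and the edgeR adjusted p 0.0311, so AHR was called with the block. In that fit 4 of the 7 members were called, and so were 39.9% of all tested genes, against 28.6% without the block. Both higher levels, in control 2 and CYT 2, belong to the same replicate number. An antisense gene, AC073332.1, shares 270 exonic bases with AHR on the opposite strand and rose from 9, 31 and 10 counts to 58, 96 and 122 counts (log2 fold change 2.79, edgeR adjusted p = 0.0053). AHR had 541, 933 and 299 counts in control and 259, 304 and 202 in CYT libraries, and whether counting used strand was not stated, so reads of the 2 genes cannot be told apart in the shared bases. A second gene model, AC019117.2, is protein-coding, lies on the same strand as AHR and shares 2373 exonic bases with it, and it had 0 counts in each control and 2 in each CYT library.

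AHRR (ENSG00000063438, chr5:304176-438291, plus strand), which competes with the receptor for ARNT and for the response element, was the lowest of the tested members. It held 2.73, 5.06 and 2.44 CPM in control and 6.49, 9.11 and 3.42 CPM in CYT libraries, from 34 to 128 counts a library. CYT replicate 3 lay inside the control range and the other CYT libraries above it. The log2 fold change of 0.89 (SE 0.47) had an edgeR adjusted p of 0.188, and the means were 3.41 ± 1.43 and 6.34 ± 2.85 CPM (SD, n = 3 each). AHRR shares 244 exonic bases with PDCD6 on the same strand, a calcium-binding protein gene with far more reads, with 861, 980 and 900 counts in control and 1470, 1549 and 1171 after CYT. PDCD6 was itself called higher, with a log2 fold change of 0.85 and an edgeR adjusted p of 0.043. How reads in the shared bases were assigned was not stated, so the AHRR counts are uncertain to that extent.

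CYP1A1 (ENSG00000140465, chr15:74719542-74725610, minus strand), the P450 gene most often read as a gauge of receptor activity, rose after CYT. Its level was 13.7, 12.6 and 9.2 CPM in the control libraries and 45.1, 28 and 51.5 CPM in the CYT libraries. The lowest CYT library, replicate 2, was above the highest control library. The mean rose from 11.8 ± 2.35 to 41.6 ± 12.1 CPM (SD, n = 3 each), which is 3.51-fold (log2 fold change 1.81, SE 0.35, edgeR adjusted p = 0.00477). The counts behind these levels were 221, 237 and 128 in control and 640, 394 and 648 in CYT libraries.

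CYP1B1 (ENSG00000138061, chr2:38066973-38109902, minus strand), whose enzyme hydroxylates estradiol and polycyclic hydrocarbons and is found in many tumours, had the largest log2 fold change of the tested members. It held 8.12, 11.8 and 9.27 CPM in control and 46.5, 92.4 and 55.7 CPM in CYT libraries. All CYT libraries were above all control libraries, and CYT replicate 2, the lowest CYT library for CYP1A1, was the highest for CYP1B1. The mean rose from 9.74 ± 1.89 to 64.9 ± 24.3 CPM (SD, n = 3 each), which is 6.65-fold (log2 fold change 2.73, SE 0.37, edgeR adjusted p = 0.00121). CYP1B1-AS1, annotated on the opposite strand with 678 shared exonic bases, also rose, from 11, 5 and 6 counts to 35, 27 and 37 counts (log2 fold change 2.40, edgeR adjusted p = 0.00881). CYP1B1 had between 131 and 222 counts in control and between 660 and 1298 in CYT libraries, so the antisense counts were small beside its own. The coding gene RMDN2, also opposite to CYP1B1, had a log2 fold change of -0.23 (edgeR adjusted p = 0.694).

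TIPARP (ENSG00000163659, chr3:156673235-156706770, plus strand) encodes PARP7, a mono-ADP-ribosyltransferase that is induced by the receptor and dampens it. It held 24.8, 37.2 and 28.2 CPM in control and 29.6, 57.3 and 38.7 CPM in CYT libraries. CYT replicate 1 lay within the control range, and the other CYT libraries were above it. The means of 30.1 ± 6.42 and 41.8 ± 14.1 CPM (SD, n = 3 each) gave a log2 fold change of 0.48 (SE 0.34, edgeR adjusted p = 0.323). TIPARP-AS1, a noncoding gene that starts beside TIPARP on the opposite strand and shares 37 exonic bases with it, rose from 3, 13 and 11 to 60, 140 and 97 counts (log2 fold change 3.70, edgeR adjusted p = 0.0023).

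**Figure D2:**
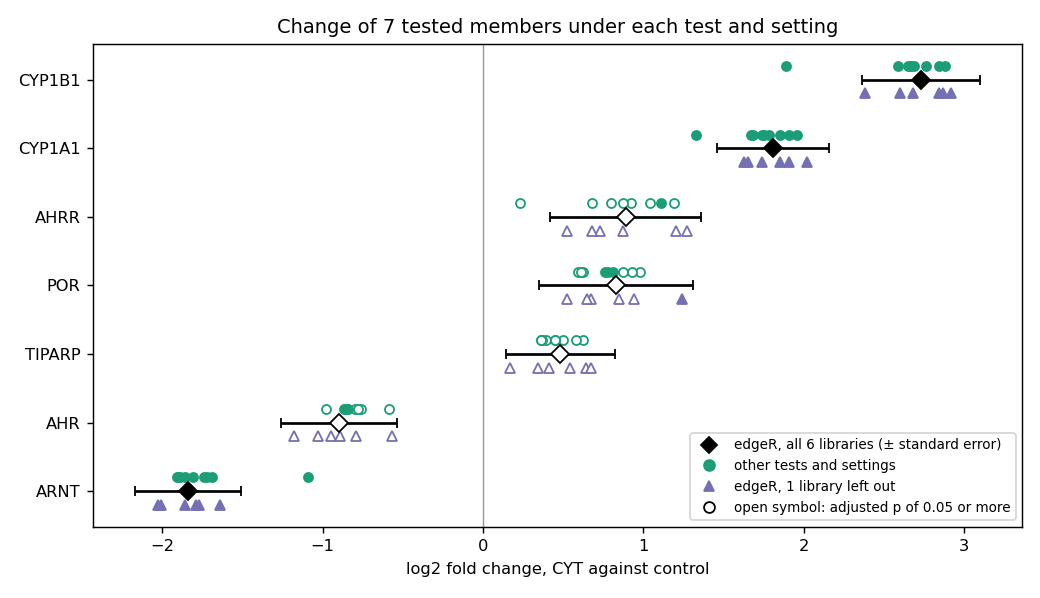
Log2 fold change of CYT against control (horizontal axis) for the 7 tested members under the edgeR test of all 6 libraries (diamonds, with the standard error), other tests and settings (circles), and edgeR with 1 library left out (triangles). Filled symbols had an adjusted p under 0.05: those of CYP1B1, CYP1A1 and ARNT are filled throughout, those of TIPARP nowhere, and POR has a filled triangle at 1.24, without CYT replicate 2.

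NR1I2 (ENSG00000144852, chr3:119780484-119818485, plus strand), the PXR gene, had 0 counts in each control library and 3, 0 and 1 counts in CYT libraries 1 to 3. It failed the filter on low counts and was not tested. A count of 0 allowed up to 0.173, 0.169 and 0.214 CPM in the control libraries, taking 3 counts of the library total, which covers counting error only. Both groups were at or under 3 counts in every library, so a difference was not detectable at this depth and no fold is given.

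POR (ENSG00000127948, chr7:75899200-75986855, plus strand), the electron donor of the P450 enzymes, had the highest mean CPM of the members in both groups, and its values turned on 1 library. It held 120, 78.6 and 109 CPM in control and 252, 61.5 and 232 CPM in CYT libraries. CYT replicates 1 and 3 were above every control library, whereas CYT replicate 2 was below all of them. The means were 102 ± 21.4 and 182 ± 105 CPM (SD, n = 3 each), with a log2 fold change of 0.83 (SE 0.48) and an edgeR adjusted p of 0.222. Without CYT replicate 2 the log2 fold change was 1.24 (SE 0.25) with an edgeR adjusted p of 0.00582, in a fit that called 35.6% of its tested genes. POR was also called with all 6 libraries after a correction for GC content and length (log2 fold change 0.81, SE 0.25, edgeR adjusted p = 0.0242), which called 47.0% of all tested genes. That library correlated least with its own group over all genes, with a median correlation of 0.913 against 0.944 to 0.970 for the other libraries, and beyond the fit without it its part in the POR result was not tested. TMEM120A, opposite to POR with 19 shared exonic bases, had a log2 fold change of -0.23 (edgeR adjusted p = 0.648), and the other genes counted within POR had at most 7 counts in any library.

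Per gene length the order of the members changed between the groups. On the deposited FPKM scale, the control level was highest for POR (8.36 ± 1.28), followed by AHR (3.47 ± 1.58), TIPARP (2.9 ± 0.807) and ARNT (2.89 ± 0.534), which overlapped from one to the next. Below them came CYP1A1 (1.58 ± 0.307) and CYP1B1 (0.971 ± 0.251), which overlapped each other, then AHRR (0.254 ± 0.123) and NR1I2 at 0 (SD, n = 3 throughout). In CYT libraries the FPKM level was again highest on average for POR (14.9 ± 8.25), and CYP1B1 (6.59 ± 2.88), CYP1A1 (5.55 ± 1.31) and TIPARP (4.11 ± 1.63) followed, each overlapping its neighbour. AHR (1.88 ± 0.411) lay below these without overlap, and ARNT (0.822 ± 0.235) and AHRR (0.482 ± 0.244) overlapped at the lower end, above NR1I2 (0.0121 ± 0.0137). In the FPKM order the P450 genes thus stood below the receptor and its partner in control libraries and above both in CYT libraries.

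The AHR locus of the table is shorter than that of GENCODE release 29, which starts at base 16916359, so values of AHR that use the GENCODE length or exons rest on another gene model. The lengths implied by the FPKM were 1.25 to 2.16 times the exonic lengths of GENCODE release 29, so the order was also taken with the latter lengths. On that scale the control RPKM of TIPARP (5.96 ± 1.66), ARNT (5.55 ± 1.03) and AHR (4.33 ± 1.97) still overlapped from one to the next, and AHR then also overlapped CYP1A1 (3.41 ± 0.666). The CYT means of CYP1A1 (12 ± 2.83 RPKM) and CYP1B1 (11 ± 4.81 RPKM) changed places and overlapped as before.

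**Figure D3:**
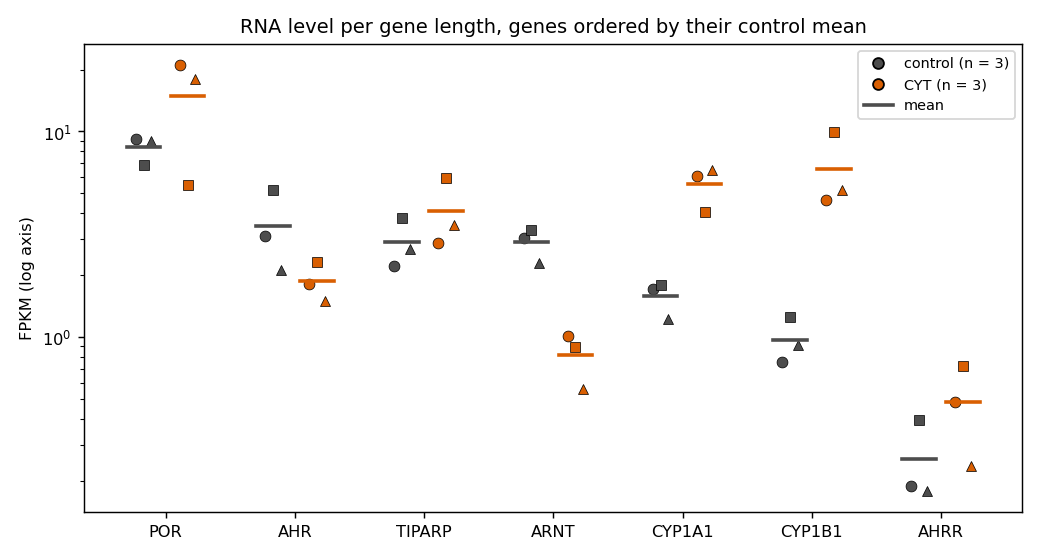
Deposited FPKM (vertical log axis) of the 7 members with counts in every library, ordered by their control mean, with a point for each library (circle, square and triangle for replicates 1, 2 and 3) and a line at each group mean. CYP1A1 and CYP1B1 stand below AHR and ARNT on average in control libraries and above both in CYT libraries.

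Ratios of FPKM within a library, chosen after the values were seen and given without a test, put the members side by side free of library scaling. The ratio of AHR to ARNT was 1.02, 1.56 and 0.92 in control and 1.8, 2.59 and 2.67 in CYT libraries. On the FPKM scale the receptor was thus between 0.92 and 1.56 times its partner in control libraries and above it in every CYT library. With GENCODE lengths the ratio was 0.66, 1.02 and 0.597 in control and 1.17, 1.68 and 1.73 after CYT, so AHR then lay below ARNT in 2 of the 3 control libraries. The ratio of AHRR to AHR was 0.0606, 0.0759 and 0.0848 in control and 0.265, 0.314 and 0.159 in CYT libraries, so the repressor stood higher against the receptor after CYT while remaining below it. The ratio of CYP1B1 to CYP1A1 was 0.439, 0.694 and 0.747 in control and 0.764, 2.44 and 0.802 in CYT libraries. CYT replicate 2 stands apart in this last ratio, and the other CYT libraries were only slightly above the highest control library.

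Around the members, 151 genes in 10 lists of related function were counted in the same fit. Of these, 110 were tested, 18 were called higher and 19 lower, and 73 were not called, with a median log2 fold change of 0.044 against 0.0064 over all tested genes. The shares called, 16.4% higher and 17.3% lower, stand beside 15.7% and 12.9% of all tested genes. The counts of each list below are small and are to be read beside these same shares of all tested genes. All 37 called genes also had an absolute log2 fold change over 1. With the replicate block 49, or 44.5%, were called, against 39.9% of all tested genes. Left out of the test were 41 genes with low counts, so the counts called apply to tested genes only.

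**Figure D4:**
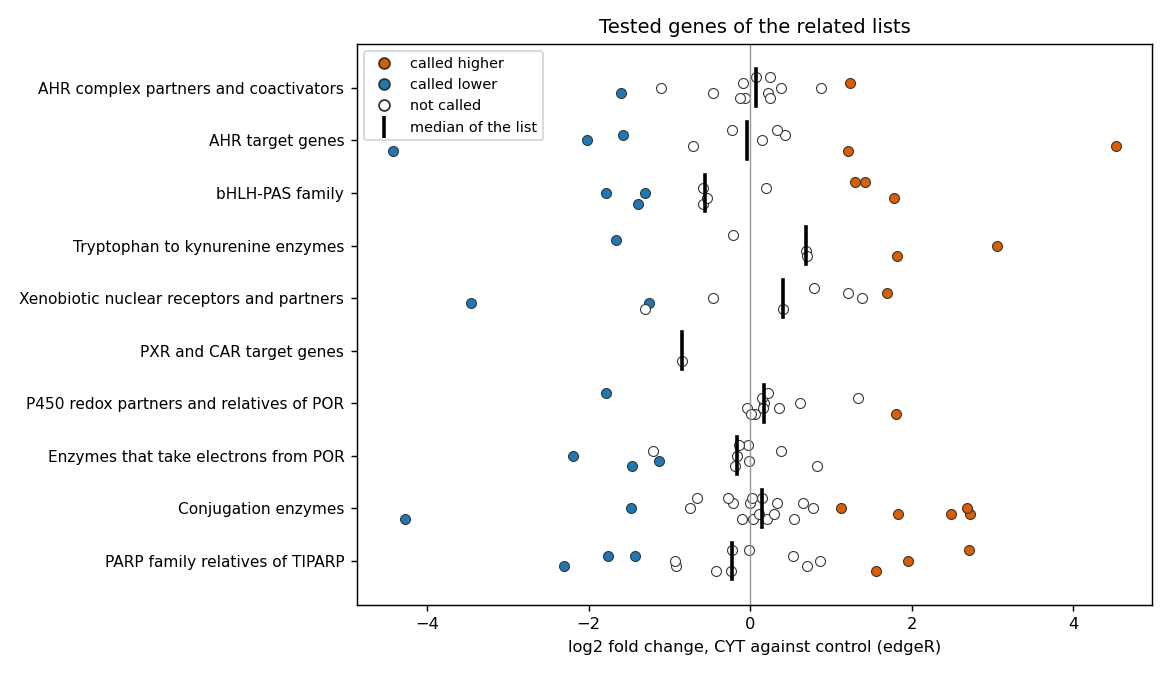
Log2 fold change of CYT against control (horizontal axis) for each tested gene of the 10 related lists, with genes called higher in orange, called lower in blue and not called in white, and the median of each list as a bar. Points are spread vertically within a list for legibility only. The list medians lie between -0.85, for the single tested PXR and CAR target, and 0.70, for the kynurenine enzymes.

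Of the 13 partners and coactivators of the receptor complex, all tested, 1 was called higher, 1 lower and 11 were not called, with a median log2 fold change of 0.071. With the replicate block 2 were called in each direction. PTGES3, the p23 co-chaperone of the HSP90 complex that holds the receptor, fell from 266 ± 27.7 to 87.7 ± 0.616 CPM (SD, n = 3 each, log2 fold change -1.60, edgeR adjusted p = 0.00263). HSP90AB1, a chaperone of the complex, had 2060 ± 292 and 1500 ± 156 CPM (log2 fold change -0.46, edgeR adjusted p = 0.206). It was called lower in 1 of 15 alternatives. NCOA2, a p160 coactivator, was called higher with a log2 fold change of 1.23 (edgeR adjusted p = 0.041). That call was lost when any library except CYT replicate 3 was left out, with an edgeR adjusted p between 0.0513 and 0.147, and without CYT replicate 2 the log2 fold change was 0.76. With all 6 libraries its adjusted p was 0.0510 in edgeR with no filter and 0.0875 and 0.0823 in limma on log2 FPKM with 1 and 0.1 added.

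Other known targets of the receptor did not move one way. Of 16 listed, 10 were tested, 2 were called higher and 3 lower, with a median log2 fold change of -0.037. NQO1, a quinone reductase that also answers to NRF2, rose from 385 ± 28.6 to 888 ± 29.9 CPM (SD, n = 3 each, log2 fold change 1.21, edgeR adjusted p = 0.00698). SERPINB2, the plasminogen activator inhibitor PAI-2, rose from 5, 2 and 0 counts to 40, 62 and 40 counts (edgeR adjusted p = 0.0026). CYP2S1, a further P450 gene of the list, fell from 48, 33 and 30 counts to 1, 0 and 3 counts (edgeR adjusted p = 0.00337), and no fold is given against so few counts. NEDD9, a scaffold protein of cell migration, fell with a log2 fold change of -1.58 (edgeR adjusted p = 0.00785). FOSL2, an AP-1 subunit, was called lower (log2 fold change -2.02, edgeR adjusted p = 0.0323), and its adjusted p was between 0.0517 and 0.0926 without any one control library or CYT replicate 1. Without CYT replicate 3 its log2 fold change was -2.87.

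CYP1A2, the liver partner of CYP1A1 in the list, had 0 counts in every control library and 11, 6 and 8 counts in the CYT libraries. Its CYT level was at least 3.27-fold higher than the 3 counts that a count of 0 allows in each control library. It did not pass the filter, and with no filter, in edgeR's test of 32060 genes, its adjusted p was 0.0086. The median gene of that fit had a log2 fold change of 0.41. Every CYT library also held more genes with at least 10 counts than any control library. CYP1A1 and CYP1A2 are similar in sequence, and how reads that match both were counted was not stated.

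The bHLH-PAS family, to which AHR, ARNT and AHRR belong, moved in both directions: of 13 relatives, 10 were tested, 3 were called higher and 3 lower, and the median log2 fold change was -0.56. ARNTL, the clock factor BMAL1, rose from 6.39 ± 0.685 to 21.9 ± 2.24 CPM (SD, n = 3 each, log2 fold change 1.78, edgeR adjusted p = 0.00305). NPAS2, a clock factor that pairs with BMAL1, fell from 34.6 ± 2.91 to 10 ± 2.76 CPM (log2 fold change -1.79, edgeR adjusted p = 0.00385). ARNT2, the close relative of ARNT, had 18.1 ± 2.58 and 12.1 ± 3.03 CPM and was not called (log2 fold change -0.58, edgeR adjusted p = 0.203).

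The other 4 called relatives lost their call when single libraries were left out, and 3 of them under other settings as well. HIF1A, the hypoxia-inducible factor subunit that also binds ARNT, was called lower (log2 fold change -1.39, edgeR adjusted p = 0.0332), and had an adjusted p between 0.0614 and 0.116 without control 1, control 2, CYT 1 or CYT 3, and of 0.0516 with upper-quartile normalization and 0.0512 at a mean of at least 5 CPM. EPAS1, the HIF-2 alpha gene, was called higher (log2 fold change 1.42, edgeR adjusted p = 0.0326), with an adjusted p between 0.0732 and 0.0976 without any one control library and a log2 fold change of 0.86 without CYT replicate 2. In limma its adjusted p was 0.0698 and 0.0562 on log2 FPKM with 1 and 0.1 added. ARNTL2, the BMAL2 gene, was called lower (log2 fold change -1.30, edgeR adjusted p = 0.0254), with an adjusted p between 0.0507 and 0.0846 without control 1, control 2, CYT 1 or CYT 3. SIM2 was called higher (log2 fold change 1.30, edgeR adjusted p = 0.0257), with an adjusted p between 0.0716 and 0.0908 without any one library except CYT replicate 2 and of 0.0523 with no filter.

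Enzymes that turn tryptophan into kynurenine and its products, some of which are ligands of the receptor, had 6 of 11 genes tested, 2 called higher, 1 lower and 3 not, with a median log2 fold change of 0.70. KMO, which hydroxylates kynurenine, rose from 1, 6 and 8 counts to 37, 47 and 25 counts (log2 fold change 3.05, edgeR adjusted p = 0.00836, and 3.68 on the log2 scale without control replicate 3). AADAT, which makes kynurenic acid, rose from 4.72 ± 0.39 to 16.5 ± 5.81 CPM (SD, n = 3 each, log2 fold change 1.81, edgeR adjusted p = 0.00559). KYAT1, another transaminase of kynurenine, was called lower (log2 fold change -1.66, edgeR adjusted p = 0.0184), with an adjusted p of 0.0672 without control replicate 1. KYNU, the kynureninase, had 47.5 ± 13.4 and 77.3 ± 36.6 CPM and was not called (edgeR adjusted p = 0.207).

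Among nuclear receptors that sense xenobiotics and their partners, 9 of 12 were tested, 1 was called higher (2 with the replicate block), 2 lower and 6 were not called, with a median log2 fold change of 0.40. RXRA, the partner of PXR and of many other nuclear receptors, fell from 57.4 ± 11.1 to 5.21 ± 1.25 CPM (SD, n = 3 each, log2 fold change -3.46, SE 0.35, edgeR adjusted p = 0.000469). Its counts were 1131, 928 and 734 in control and 54, 87 and 71 in CYT libraries, with no overlap. VDR, the vitamin D receptor, rose from 11.9 ± 2.6 to 38.5 ± 6.22 CPM (log2 fold change 1.69, edgeR adjusted p = 0.00443). NR1I3, the CAR gene, had from 7 to 26 counts a library and was not called (log2 fold change 1.38, edgeR adjusted p = 0.0938). NR1H3, the oxysterol receptor LXR alpha, was called lower (log2 fold change -1.25, edgeR adjusted p = 0.036), with adjusted p values of 0.122, 0.0903 and 0.106 without control 1, control 3 and CYT 3. It was also not called with upper-quartile normalization (0.0548) or at a mean of at least 5 CPM (0.0556).

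Targets of PXR and CAR had few counts in these libraries, and 1 of 11 was tested. The tested gene, ALAS1, which makes the first intermediate of heme, had 132 ± 37.5 and 73.5 ± 18.9 CPM (SD, n = 3 each) and was not called (log2 fold change -0.85, edgeR adjusted p = 0.0878). With the replicate block it was called lower (log2 fold change -0.84, edgeR adjusted p = 0.02). CYP3A4, the main drug-metabolizing P450 of liver, had 0 counts in every control library and 4, 15 and 2 counts in CYT libraries, and ABCB1, the multidrug efflux pump, had 0, 1 and 3 counts in control and 20, 5 and 11 in CYT libraries. Both were under the filter, and with no filter edgeR's adjusted p was 0.0224 for CYP3A4 and 0.041 for ABCB1. With no filter 4 genes of the list were called higher in all. The median gene of that fit had a log2 fold change of 0.41. Genes with at least 10 counts numbered 14857, 15083 and 14619 in control and 16075, 16018 and 15773 in CYT libraries. More genes thus reached that count after CYT, and the part of this gain in the 4 calls was not tested.

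Redox partners of P450 enzymes and relatives of POR had 12 of 15 genes tested, with 1 called higher (2 with the replicate block), 1 lower and 10 not called, and a median log2 fold change of 0.16. PGRMC1, a heme-binding membrane protein that binds P450 enzymes, rose from 103 ± 28 to 359 ± 161 CPM (SD, n = 3 each, log2 fold change 1.80, edgeR adjusted p = 0.00735). The cytochrome b5 gene CYB5A had 40.3 ± 8.04 and 41.8 ± 11.7 CPM and its reductase gene CYB5R3 128 ± 50.9 and 141 ± 50.1 CPM, and neither was called. NOS3, a nitric oxide synthase with a reductase domain like POR, was called lower (log2 fold change -1.79, edgeR adjusted p = 0.0312), with adjusted p values of 0.101, 0.0982 and 0.0823 without control 1, control 3 and CYT 1.

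Of the 13 listed enzymes that take electrons from POR, 11 were tested, 3 were called lower and 8 were not called, with a median log2 fold change of -0.16. No gene of the list was called higher by edgeR, while 1, CYP4V2, was higher at an unadjusted p under 0.05. DESeq2 and the fit with the replicate block each called 1 higher and 4 lower. Of all tested genes DESeq2 called 33.9% and the fit with the block 39.9%. The 3 called genes, DHCR7, SQLE and CYP51A1, encode enzymes of cholesterol synthesis, and the heme oxygenase gene HMOX1, which is no such enzyme, was lower at an unadjusted p under 0.05 without being called. DHCR7 fell from 237 ± 140 to 52 ± 13.3 CPM (SD, n = 3 each, log2 fold change -2.19, edgeR adjusted p = 0.00601), and SQLE from 34 ± 3.57 to 12.3 ± 1.97 CPM (log2 fold change -1.46, edgeR adjusted p = 0.00628). CYP51A1 was called lower (log2 fold change -1.13, edgeR adjusted p = 0.0323), with an adjusted p between 0.0606 and 0.118 when any one library other than CYT replicate 2 was left out, of 0.0562 with upper-quartile normalization and of 0.0519 at a mean of at least 5 CPM.

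The list of conjugation enzymes, which attach groups to the products of P450 enzymes, also held epoxide hydrolases, which are not conjugating. Of its 31 genes 23 were tested, with 5 called higher, 2 lower and 16 not called, and a median log2 fold change of 0.15. EPHX1, the microsomal epoxide hydrolase that works with CYP1A1 on polycyclic hydrocarbons, rose from 21.6 ± 6.4 to 143 ± 42.1 CPM (SD, n = 3 each, log2 fold change 2.72, edgeR adjusted p = 0.00126). NAT1, an arylamine acetyltransferase, rose from 3.8 ± 0.718 to 24.3 ± 4.93 CPM (log2 fold change 2.68, edgeR adjusted p = 0.00105), and GSTM3, a glutathione transferase with close paralogs among which reads can be split, rose from 54.1 ± 10.3 to 302 ± 9.93 CPM (log2 fold change 2.48, edgeR adjusted p = 0.000734). GSTA4 fell from 12.7 ± 2.25 to 4.53 ± 0.347 CPM (log2 fold change -1.48, edgeR adjusted p = 0.00877). SULT2B1, a sterol sulfotransferase, fell from 38, 15 and 42 counts to 3, 0 and 1 counts (edgeR adjusted p = 0.00667), and no fold is given against so few counts.

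The PARP family, to which TIPARP belongs, had 15 of 16 genes tested, with 3 called higher, 3 lower and 9 not called, and a median log2 fold change of -0.22. PARP14 rose from 13.2 ± 2.89 to 86.4 ± 49.2 CPM (SD, n = 3 each, log2 fold change 2.71, or 2.12 without CYT replicate 2, edgeR adjusted p = 0.00235), PARP11 with a log2 fold change of 1.95 (edgeR adjusted p = 0.0106) and PARP8 with one of 1.55 (edgeR adjusted p = 0.00724). PARP2, a DNA repair enzyme, fell from 21.7 ± 4.59 to 4.39 ± 1.23 CPM (log2 fold change -2.30, edgeR adjusted p = 0.00222), PARP12 with a log2 fold change of -1.76 (edgeR adjusted p = 0.00301) and PARP4 with one of -1.43 (edgeR adjusted p = 0.0074). PARP1, the main DNA damage sensor of the family, had 275 ± 44.7 and 205 ± 21.2 CPM and was not called (edgeR adjusted p = 0.271).

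For each tested member, the 2 genes most alike over the 6 libraries were sought among 11417 genes by Pearson's r of log2 CPM, as a description. With 6 libraries and this many genes a high r is found for any member, and it also carries the difference between the groups. CYP1A1 was closest to EPOR (r = 0.997) and IRX5 (r = 0.997), and CYP1B1 to FH (r = 0.999) and AC009113.1 (r = 0.999). ARNT was closest to URB2 (r = 0.997) and SHROOM2 (r = 0.996), and AHR to SLC15A4 (r = 0.997) and PPP1R12A (r = 0.992). The closest to AHRR were PLPP6 (r = 0.993) and FLRT2 (r = 0.989), to TIPARP QPCT (r = 0.996) and GSKIP (r = 0.993), and to POR MIDN (r = 0.998) and ORAI1 (r = 0.997).

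Total counts per library were 14050849 to 17770102 for control and 13056270 to 14106017 for CYT. The 5 markers of the MDA-MB-231 line summed to between 3710 and 4080 CPM in control and between 1780 and 1920 CPM in CYT libraries, with VIM at 2460 and 996 CPM on average, while ESR1 and PGR had at most 4 and 3 counts in any library. In bulk RNA, fewer cells of a kind and less RNA per cell cannot be told apart. Markers of hepatocytes, which express many of the genes above, summed to 1.08 to 2.23 CPM in control and 2.14 to 5.48 CPM in CYT libraries, with ALB at 0 counts in every control library and at 12, 14 and 9 counts in CYT libraries. For immune cells the sums were 7.84 to 24.1 and 7.69 to 18.5 CPM, with CD3E at 0 throughout, while CD14 had 10, 4 and 19 counts in control and 51, 59 and 49 after CYT, and PTPRC 0 in every control library and 7, 2 and 2 after CYT. CD68 had 378, 163 and 90 counts in control and 204, 47 and 88 after CYT. For endothelial cells the sums were 1.86 to 3.59 and 2.75 to 4.93 CPM. Luminal markers summed to 7.38 to 12.9 CPM in control and 6.67 to 13.5 CPM in CYT libraries. The part of these shifts in the results on CYP1A1, CYP1B1 and ARNT was not tested.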

How the data were processed

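RNA was measured in 6 libraries, grouped from the sample labels as 3 control and 3 CYT. The authors enriched mRNA, read it on an Illumina NovaSeq instrument, filtered poor, adapter-containing and ribosomal reads, and mapped the rest with Hisat2. The submitters' processing notes name FastQC 0.12.1 and hg38. The deposited raw counts per gene were tested here, and the FPKM values deposited by the authors were used for levels between genes, for ratios and for limma. The study's methods name Stringtie for the FPKM and a program called edge for quantifying genes. Which program counted the reads, with which annotation and strand setting, was not given in the sources used here. GENCODE release 29 holds 58084 of the identifiers, 97.5% of them at an identical locus.

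The test was edgeR 4.0.16 under R 4.3.3, with TMM, filterByExpr at a minimum count of 10, the quasi-likelihood F test of CYT against control and Benjamini-Hochberg adjustment over 15572 genes. Each standard error was the absolute log2 fold change divided by the root of F. The biological coefficient of variation was 37.5%. For 3 libraries a group, the smallest p of an exact permutation test is 0.1, so none was used for calls. On simulated counts for these 15572 genes in the CYT against control design, edgeR recovered 113 of 200 changed genes with 4.24% false calls. With the replicate block edgeR recovered 70 with 2.78%, limma on log2 FPKM with 0.1 added 92 with 8.0%, and DESeq2 148 with 19.1%. Genes simulated as raised had a median log2 fold change of 2.02 in edgeR. No replicate effect was simulated, and far fewer genes were changed than were called in the data. These rates may therefore not carry over to the data. Alternatives were upper-quartile normalization, DESeq2 1.42.0, no filter, a filter at a mean of 5 CPM, limma 3.58.1 on log2 FPKM with 1 or 0.1 added first, a replicate block, the fold criterion of the study, and leaving out single libraries. The correction for GC content and length was chosen after seeing the data.

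The members and the gene lists were chosen with earlier results of these data known. All 8 members are named, and from each list up to 3 genes called higher and up to 3 called lower with the largest absolute log2 fold change, a set of 13 further genes named whatever their values, the 2 genes most like each member at a mean of at least 5 CPM, and genes overlapping a member. ALAS1 was named after its values were seen, as the single tested gene of its list. CYP4V2, HMOX1 and single marker genes were also named after their values were seen, and overlapping genes with few counts are left out. Other listed genes are given as counts and medians alone. Some items are not reported here.

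To check pairing, each library's deviation from its group mean was correlated across genes between groups. Libraries 1, 2 and 3 gave 0.237, 0.510 and 0.137 with their own number, and the replicate block follows these numbers. The block rests on the replicate numbers of the labels and on this check alone. Control 1 with CYT 3 (0.358) exceeded the values of pairs 1 and 3, and control 3 with CYT 1 (0.223) exceeded that of pair 3. Controls 1 and 3 were thus closest to a library of another number, so their pairing is not established.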

Additional observations from a re-analysis of the deposited data

How the results depend on the processing

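The calls of ARNT, CYP1A1 and CYP1B1 held in all 15 alternatives tried for each, with log2 fold changes from -2.03 to -1.09, from 1.33 to 2.02 and from 1.89 to 2.92, and TIPARP was called in none. The replicate block called AHR (-0.84, adjusted p 0.0311) and changed no other member's call. It called ALAS1 (-0.84, edgeR adjusted p 0.02) and changed no call of the 42 tested related genes named by the rule. Among the enzymes that take electrons from POR it called 1 higher and 4 lower, against 0 and 3 without the block. With the correction for GC content and length 5 members were called, and 6 with that correction and the replicate block in one fit, while 47.0% and 46.0% of all tested genes were called, against 28.6%. AHR then had -0.86 (adjusted p 0.0228) and -0.85 (0.0348) with the block, POR 0.81 (0.0242) and 0.76 (0.0319) with the block, and AHRR 1.11 (0.0355) in the fit with the block. The cause was not tested. Leaving out each library in turn gave a log2 fold change of 0.52 to 1.24 for POR, with the call made without CYT replicate 2 alone, and of -1.18 to -0.57 for AHR with no call. Among uncalled genes near 0, CYB5A turned negative with no filter (-0.029) and ran from -0.15 to 0.25 with a library left out, and CYB5R3 ran from -0.14 to 0.42. Upper-quartile normalization moved the median of all genes to 0.16, the fit with no filter to 0.41 and the GC correction to -0.11, and the directions of the 7 tested members held in all 3. Related genes called ran from 26 to 43 with a library left out, against 37. In the same fits 17.6% to 35.6% of all tested genes were called, against 28.6% with all 6 libraries. Depth limits NR1I2, CYP1A2, CYP3A4 and ABCB1, which were under the filter.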
